A study of Homo sapiens with 4 samples.

Results

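The genes for the proteins of the mitochondrial ribosome were taken as every gene symbol that begins with MRPL or MRPS followed by a number and at most a letter A, B or C. The rule found 78 genes among the 28058 of the count table and used no measured value. Poly(A) RNA was sequenced from 2 untreated control samples and 2 samples given shock wave treatment (SWT), all labelled SH-SY5Y (a line from a human neuroblastoma) and grown in DMEM with fetal calf serum. Cells were collected at 6 h. Per the treatment protocol, flasks stood in a water bath at 37 °C, 7 cm from the applicator, and received 300 pressure impulses, each of 0.08 mJ/mm2, at a rate of 3 Hz. Exosomes are named in place of direct treatment in the series' design text, and which of these was applied is not clear from the labels. No label says that the replicates were separate cultures, so each p-value reflects the spread among the 4 samples alone, and that spread may be technical.

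The mitochondrial ribosome translates the few messages of mitochondrial DNA, all of which code for core subunits of the respiratory chain and the ATP synthase. Its rRNAs are transcribed inside the organelle, whereas all of its proteins are encoded in the nucleus, made in the cytosol and imported, so its assembly draws on both genomes. It has many proteins descended from those of bacterial ribosomes, and others that arose in mitochondria and have no bacterial counterpart.

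By the structural roles of the proteins, 51 members belong to the large subunit and 26 to the small subunit. MRPS30 and MRPS18A are among the large-subunit proteins in spite of their names. Of the large-subunit members 30 were classed as having a bacterial homologue and 21 as specific to mitochondria, and for the small subunit these numbers are 16 and 10. MRPS18A and MRPS18B were counted as specific to mitochondria, although they arose from copies of a bacterial protein. The class values below keep that choice. The remaining member, MRPS36, is now known as a component of the oxoglutarate dehydrogenase complex and was kept because the symbol rule holds it.

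Total counts ran from 9888263 in control replicate 2 to 11686808 in SWT replicate 2, and a count of 0 allows between 0.258 and 0.303 CPM (counts scaled to the size of the library). Markers went only partly with the label. Of 20 general mesenchymal markers 17 reached 10 CPM in every library, against 5 of 20 noradrenergic markers. Of the noradrenergic markers 11 were under 1 CPM in every library, and 8 (TH and DBH among them) had no count. Transcripts of 30 heart muscle genes summed to 13.8 and 409 CPM in control replicates 1 and 2 and to 48.1 and 16.9 CPM in SWT replicates 1 and 2. Control replicate 2 stood apart in this, and their part in the results below was not tested. In these bulk libraries, a lower level of a transcript in each cell and fewer cells that carry it cannot be told apart.

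The members lie on 21 chromosomes and do not form a cluster. A start of another protein-coding gene on the opposite strand lay within 1000 bases of the start of 29 of the 78 members (37.2%), against 2584 of 19927 protein-coding genes (13.0%), in GENCODE 29 on GRCh38. In 1 such pair both genes are members. MRPL46 (chr15:88459476-88467419, minus strand) and MRPS11 (chr15:88467453-88480773, plus strand) start 34 bases apart. Other members share their start region with genes of mitochondrial function. MRPL36 starts 34 bases from NDUFS6 and MRPL47 36 bases from NDUFB5, both for subunits of respiratory complex I. MRPL43 starts 148 bases from TWNK, the helicase of mitochondrial DNA, and MRPS12 starts 348 bases from SARS2, the mitochondrial seryl-tRNA synthetase. MRPL32 starts 23 bases from PSMA2, a proteasome subunit.

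Promoter windows of 250 bases before to 50 bases after the start were taken from RefSeq (GRCh38.p14) and matched 69 of the 78 members. They were searched on both strands for the letters of 3 factors known to act on nuclear genes of mitochondrial proteins. The YY1 word AAGATGGCG was present in 13 members (18.8%) and in 2.7% of 15842 protein-coding windows of the same length. In 10 of those 13 members it lay after the start on the transcript strand, and the same was true of 64.3% of the protein-coding windows that hold it. The word of the ETS family factor GABPA, CCGGAAGT, was present in 11 members (15.9%) against 6.2%. For NRF1, GCATGCGC was present in 6 members (8.7%) against 4.3%, and the shorter CATGCGC, which lies inside it, in 7 (10.1%) against 5.9%. Apart from the shorter NRF1 word, no word searched is contained in another. None of the 3 words was found in 45 members, 1 kind in 19, 2 kinds in 4 and all 3 in MRPL52. A match is a stretch of letters and not a measured binding site.

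The windows below show how these words are arranged in 4 of the 5 members that hold more than 1 kind. The fifth, MRPS18B, has the NRF1 and YY1 words and is not printed. Each is written 5′ to 3′ along the transcript, the start is base 251 of 300, and capitals mark the matches on either strand. They are MRPL52 at chr14:22829637-22829936 (plus strand), MRPL22 at chr5:154940823-154941122 (plus), MRPL32 at chr7:42932126-42932425 (plus) and MRPL38 at chr17:75904835-75905134 (minus).
MRPL52: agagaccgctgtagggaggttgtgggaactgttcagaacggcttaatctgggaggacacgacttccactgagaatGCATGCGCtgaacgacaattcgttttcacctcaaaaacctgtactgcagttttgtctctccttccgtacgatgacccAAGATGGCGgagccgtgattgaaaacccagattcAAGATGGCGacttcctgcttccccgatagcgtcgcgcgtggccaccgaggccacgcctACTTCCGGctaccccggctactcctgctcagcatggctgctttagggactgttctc
MRPL22: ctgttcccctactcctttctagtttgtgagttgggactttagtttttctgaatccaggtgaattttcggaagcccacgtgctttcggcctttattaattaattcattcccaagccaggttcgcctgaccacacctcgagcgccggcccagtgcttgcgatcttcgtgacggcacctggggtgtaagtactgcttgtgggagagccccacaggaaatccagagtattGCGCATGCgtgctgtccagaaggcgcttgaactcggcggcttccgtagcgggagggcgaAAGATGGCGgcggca
MRPL32: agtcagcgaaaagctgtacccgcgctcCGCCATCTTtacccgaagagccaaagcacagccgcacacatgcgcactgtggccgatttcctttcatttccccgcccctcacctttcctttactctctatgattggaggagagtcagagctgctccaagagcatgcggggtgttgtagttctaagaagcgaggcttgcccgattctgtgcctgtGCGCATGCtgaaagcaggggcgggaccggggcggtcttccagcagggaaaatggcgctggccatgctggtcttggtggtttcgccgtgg
MRPL38: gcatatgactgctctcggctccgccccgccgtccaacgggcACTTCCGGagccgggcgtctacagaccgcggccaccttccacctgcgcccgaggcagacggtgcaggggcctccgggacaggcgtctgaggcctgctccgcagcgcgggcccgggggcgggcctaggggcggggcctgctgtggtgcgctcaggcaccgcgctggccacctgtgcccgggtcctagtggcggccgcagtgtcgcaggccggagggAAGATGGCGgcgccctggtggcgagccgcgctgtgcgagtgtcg
In MRPL52 the NRF1 word comes first, YY1 words follow at 2 places, and the ETS word lies across the start. In MRPL22 the NRF1 word precedes the start and the YY1 word follows it. MRPL32 has both words before the start, and the window of MRPL38 has an ETS word near its far end and a YY1 word just after the start.

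Nearly all members were transcribed at moderate levels, and the libraries differed little in them. Of the 78 members 73 had a mean of at least 10 CPM over the 4 libraries, and the median member stood at 59.9 CPM. The member counts summed to 5249 and 5254 CPM in the controls and to 5190 and 5166 CPM in the SWT libraries. That is 0.523% and 0.525% of all counts in the controls and 0.520% and 0.515% in SWT. The large-subunit sum was 1.95 and 1.91 times the small-subunit sum in the controls and 1.92 times in both SWT libraries. These sums run over 51 and 26 members, so the ratio depends on the number of genes and is not a balance of subunits. The small-subunit members MRPS18B and MRPS24 added almost no counts.

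To set genes side by side, CPM was divided by the length of all annotated exons of the gene in kb. On this scale the median member stood at 21.6 CPM per kb and the members' quartiles at 13.3 and 38.6. The medians of the large subunit (21.8) and of the small subunit (20.6) were close. MRPL12 was the highest at 185 ± 11.6 CPM per kb (SD, n = 4 libraries). Its protein forms the stalk that recruits translation factors. In this gene 68.2% of the exon bases also belong to another annotated gene on the same strand, AC139530.2, so its count may be split or incomplete. MRPS21, a small-subunit protein with a bacterial homologue, followed at 104 ± 5.50, and its spread did not reach MRPL12. MRPS21 has 8 annotated pseudogenes, to which reads could also have been assigned. MRPS34, a small-subunit protein specific to mitochondria, stood at 91.9 ± 5.71 and MRPL51 at 88.5 ± 3.07 CPM per kb, and these neighbours did not differ beyond their spread. MRPL24 at 79.5 ± 5.11 and MRPL3, which lies near the peptidyl transferase centre, at 74.9 ± 2.24 CPM per kb also overlapped.

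**Figure D1:**
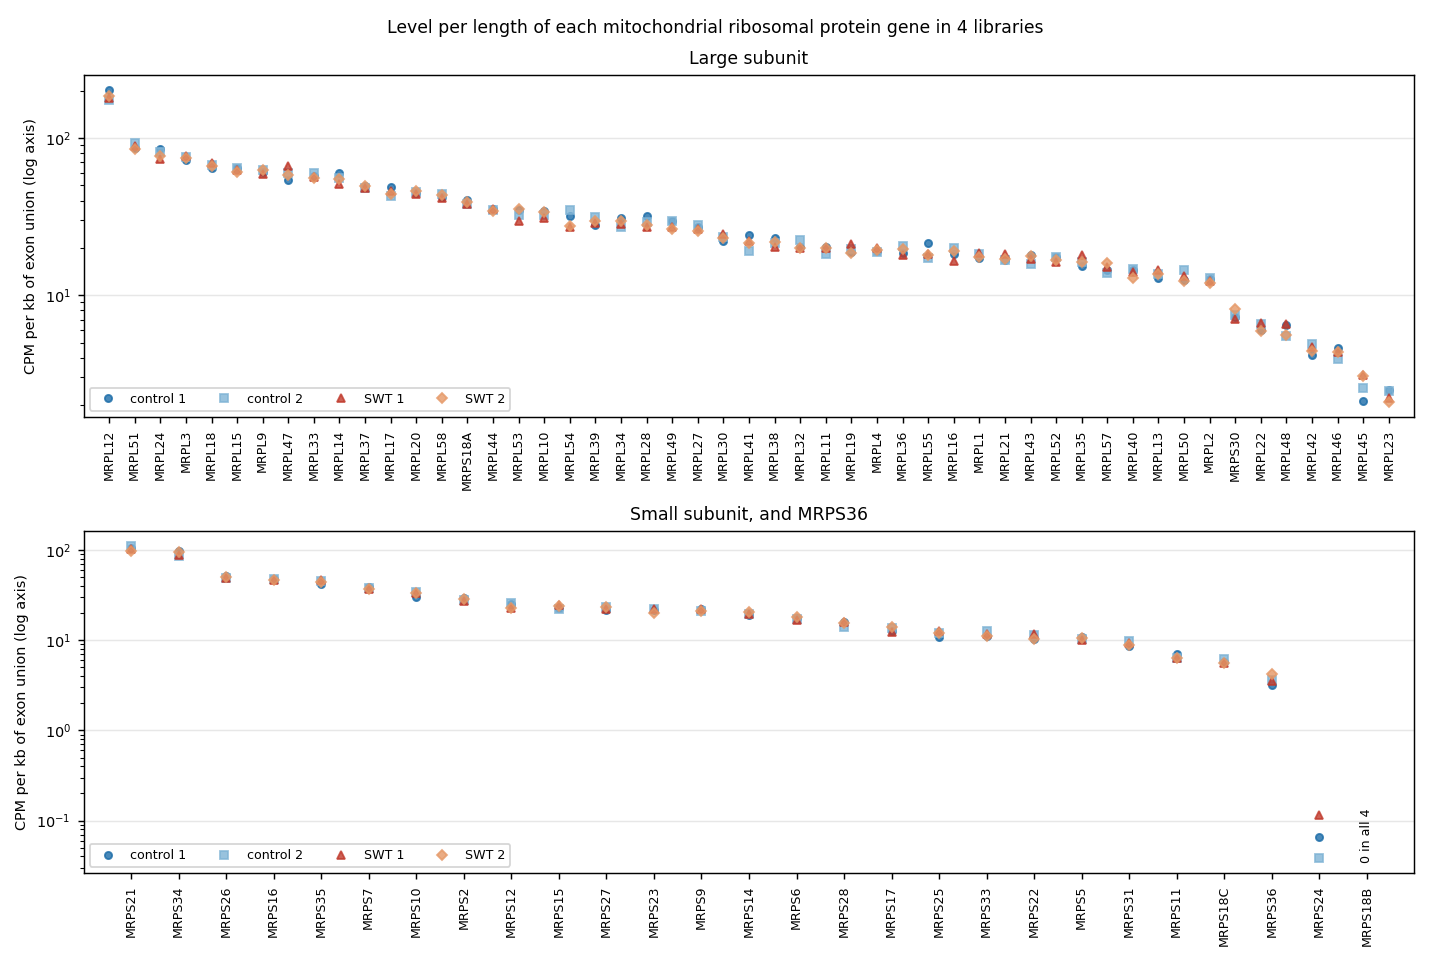
CPM per kb of annotated exons (log axis) for each member in each of the 4 libraries, large subunit above, small subunit and MRPS36 below, ordered by mean. MRPL12 stands alone at the top, the 4 libraries lie close together for most members, and MRPS18B (0 in all 4) and MRPS24 (0 in SWT 2, not drawn) lie far below the rest.

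Other proteins of the stalk were lower per length than MRPL12. MRPL10, which anchors it, stood at 32.8 ± 1.49 CPM per kb and MRPL11, at its base, at 19.6 ± 0.81. Each ribosome is known to carry several copies of MRPL12 for each MRPL10. Among the low members MRPL23, a protein at the exit of the polypeptide tunnel, was at 2.31 ± 0.19 CPM per kb, MRPS36 at 3.63 ± 0.44 and MRPL46 at 4.29 ± 0.29. The place of MRPL46 rests on a long annotated exon union. With the length of its principal transcript by APPRIS, a choice made after seeing the data, it stood at 27.05 CPM per kb. Across the 78 members, the order by exon union and the order by principal transcript had a Spearman correlation of 0.803 and shared 4 of the 6 highest and 5 of the 6 lowest genes. By principal transcript MRPL12 remained the highest, but MRPL20 at 174 ± 3.42 and MRPL33 at 171 ± 5.03 CPM per kb came next. The spreads of both overlapped that of MRPL12, and MRPS21 came after MRPL24 and MRPL3.

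The 3 paralogs MRPS18A, MRPS18B and MRPS18C were at different levels. They arose from copies of 1 bacterial protein, and each now has its own place on the ribosome. MRPS18A, in the large subunit, stood at 51.9, 49.1, 48.7 and 50.3 CPM in control 1, control 2, SWT 1 and SWT 2, which is 38.9 ± 1.11 CPM per kb. MRPS18C, at the place of the bacterial protein, stood at 27.7, 29.8, 27.0 and 27.6 CPM, or 5.76 ± 0.26 CPM per kb. By principal transcript MRPS18A stood at 47.1 ± 1.34 and MRPS18C at 17.1 ± 0.76 CPM per kb, so the gap depends on the length used. Opposite-strand genes cover 47.04% of the exon bases of MRPS18A (RSPH9) and 40.2% of those of MRPS18C (ABRAXAS1), and the strand setting of the counting was not given in the sources used here. MRPS18B, a small-subunit protein, had 0 counts in all 4 libraries.

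MRPS18B was the only member without any count. MRPS24, which lies at the entry of the mRNA channel, had 2 and 1 counts in the controls and 3 and 0 in the SWT libraries. MRPL45, which holds the ribosome to the inner membrane at the tunnel exit, had 42 and 43 counts in the controls and 53 and 61 in SWT, a level of 2.71 ± 0.46 CPM per kb. All 3 genes code for proteins that the ribosome is known to carry. The filter on low counts removed MRPS18B and MRPS24 and kept the other 76 members, among 12399 genes in all. Neither of those genes was tested.

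The genes beside MRPS18B and MRPL45 in the genome were low as well. This was looked at after the low counts had been seen. MRPS18B lies at chr6:30617709-30626395 on the plus strand. Of the 10 protein-coding genes on each side of it, 19 of 20 were under 1 CPM in every library and 17 had no count at all. Among them are genes used by nearly all cells. HLA-E, FLOT1 and PPP1R10 had 0 counts in every library, and the tubulin gene TUBB had 0, 1, 1 and 2. Beside MRPL45 (chr17:38297023-38323218, plus strand) 17 of 20 neighbours were under 1 CPM and 16 had no count, with the proteasome gene PSMB3 and SYNRG at 0. Of the 2 named pseudogenes of MRPL45, MRPL45P2 stood at 0.92 CPM, and the level of the other is not given here. MRPS24 (chr7:43866558-43869893, minus strand) differed, since only 3 of its 20 neighbours were under 1 CPM and another member, MRPL32, lies among them at 72.9 CPM. The readthrough gene URGCP-MRPS24 covers 23.19% of the exon bases of MRPS24 on the same strand and had 0 counts. MRPL23, also low at 6.88 CPM (2.31 CPM per kb), had 16 of 20 neighbours under 1 CPM. MRPL16 stood at 42.0 CPM with 17 of 20 neighbours under 1 CPM, and MRPS22 at 58.6 CPM with 14 of 20. Most neighbours of MRPL16 are olfactory receptor (OR) or MS4A genes, unlike those beside MRPS18B, so it is not a like case. Over all members the median number of such neighbours was 6 of 20, and 39.3% of 19141 protein-coding genes were under 1 CPM in every library. The part of alignment and counting in these low values was not tested, so the counts of these 3 genes are given as the level in the table and not as the level in the cells.

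**Figure D2:**
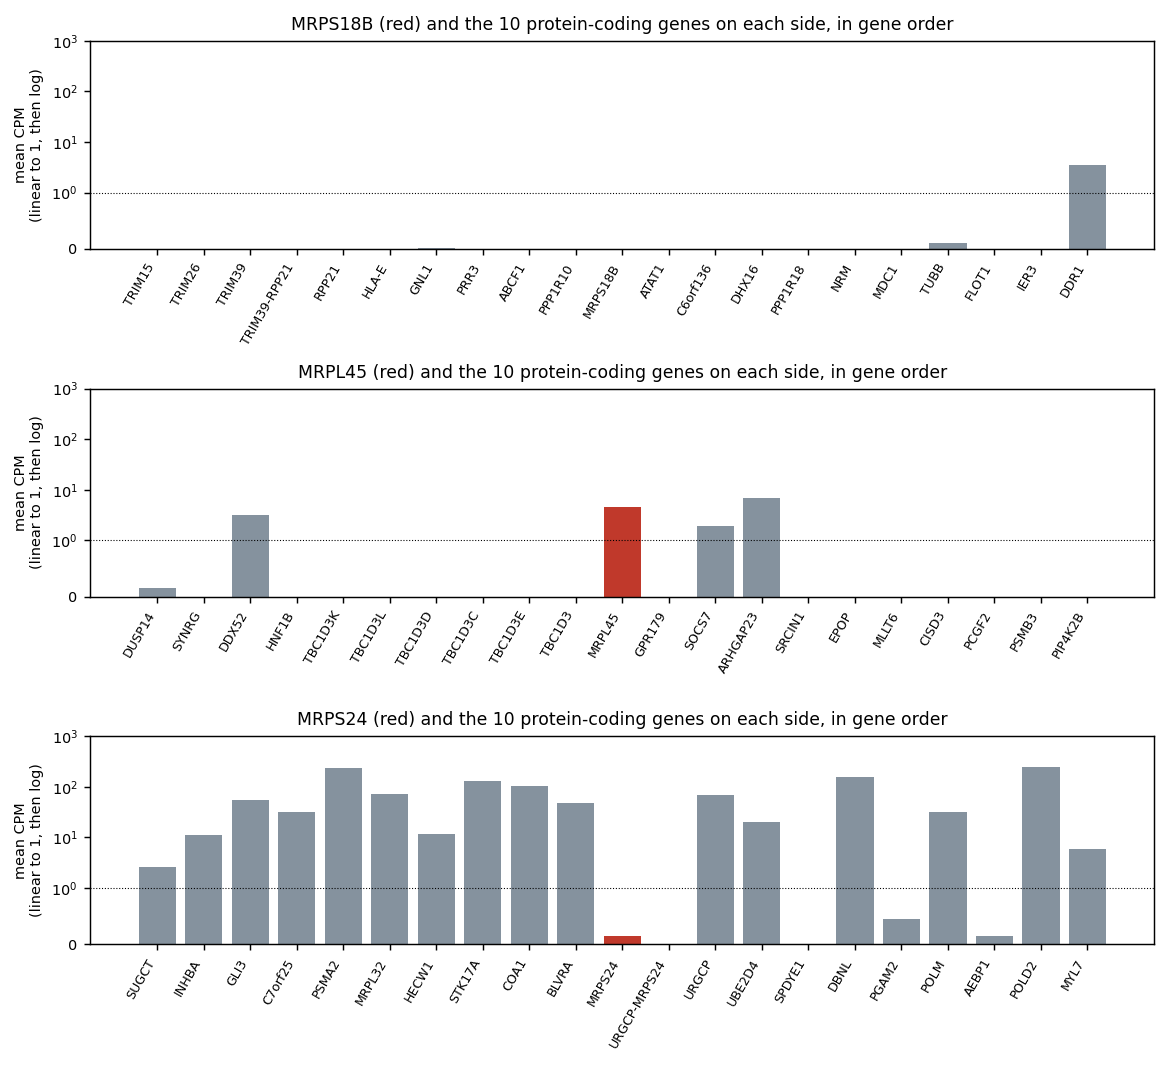
Mean CPM over 4 libraries (linear to 1, logarithmic above) of MRPS18B, MRPL45 and MRPS24 in red and of the 10 protein-coding genes on each side in grey, in gene order. The dotted line is 1 CPM: 19 of 20 neighbours lie under it in every library beside MRPS18B, 17 beside MRPL45 and 3 beside MRPS24.

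The comparison of SWT with control asks whether the cells changed the transcripts of this ribosome by 6 h. No member passed. Of the 76 tested, 0 had an adjusted p under 0.05 (edgeR quasi-likelihood test, Benjamini-Hochberg over 12399 genes), as in the whole table, where 0% of genes passed. At an unadjusted p under 0.05, 5 of the 76 members were lower in SWT, where 2.96% of all genes were, and 0 were higher, where 2.81% of all genes were. By DESeq2, 0 members were called and 0 of 77 had an unadjusted p under 0.05 in either direction, beside 116 of 17737 genes. By limma-voom these numbers were 0 and 5 of 76, beside 721 of 12399 genes. With GC and length trends removed, 1 of 76 members had an edgeR unadjusted p under 0.05, beside 811 of 12399 genes. With the replicate block it was 1 of 76, beside 525 of 12399. The number also moved when a library was left out, which leaves 1 sample in a group. The log2 fold changes ran from -0.27 (MRPL54) to 0.40 (MRPL45). They were under 0.1 in size for 59 members and under 0.2 for 74.

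The precision of these values was limited by 2 samples a group. The 95% interval of a member reached a median of 0.16 on the log2 scale to either side. It lay within 0.5 of 0 for 73 of the 76 members and within 0.25 for 53. For 57 members the log2 fold change was smaller in size than the difference between the replicates of at least 1 group. That sets groups of 2 against single libraries, whose differences tend to be larger.

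MRPL54, a large-subunit protein specific to mitochondria, gave the smallest p of the members. It stood at 31.9 and 34.8 CPM in the controls and at 27.4 and 27.7 CPM in SWT. Both SWT values were below both controls. Its log2 fold change was -0.27 ± 0.09 (SE of the fit on 2 against 2 samples, 95% interval -0.47 to -0.07). In edgeR's quasi-likelihood test its adjusted p was 0.838, from an unadjusted value of 0.0098. MRPS12, the protein of the decoding centre where codon and anticodon meet, stood at 54.2 and 55.1 CPM in the controls and 48.8 and 48.7 CPM in SWT. The groups did not overlap, and the replicates of each lay within 1 CPM. The log2 fold change of MRPS12 was -0.16 ± 0.07 (edgeR adjusted p = 0.843). SARS2, whose start lies beside that of MRPS12 and whose exons overlap 16.28% of it on the opposite strand, had a log2 fold change of -0.15 ± 0.10 (edgeR adjusted p = 0.893).

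The other members with an unadjusted p under 0.05 were proteins of the large subunit. MRPL24, at the tunnel exit, stood at 145 and 138 CPM in the controls and 125 and 131 CPM in SWT, a log2 fold change of -0.15 ± 0.06 (edgeR adjusted p = 0.838). MRPL49 stood at 91.6 and 90.9 CPM against 83.3 and 81.7 CPM, and MRPL28 at 96.3 and 88.4 CPM against 82.5 and 84.5 CPM. Both had a log2 fold change of -0.15 (SE 0.06 and 0.07, edgeR adjusted p = 0.843 for each). In all of these, as in MRPL54 and MRPS12, the 2 SWT libraries lay below the 2 controls, which was so for 18.0% of all genes. They were named for their small p in the same libraries, so this adds no support. MRPS21, the most abundant small-subunit member per length of exon union, was next at 173 and 181 CPM in the controls and 169 and 159 CPM in SWT. Its log2 fold change was -0.11 ± 0.06 (edgeR adjusted p = 0.867), and its groups did not overlap either.

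In the other direction, MRPL45 had the largest log2 fold change and the widest interval of the members, since its counts were low. Its log2 fold change was 0.40 ± 0.21 (95% interval -0.03 to 0.84, edgeR adjusted p = 0.843), from 3.62 and 4.35 CPM in the controls to 5.26 and 5.24 CPM in SWT. MRPL47, a protein near the tunnel exit, stood at 74.1 and 81.4 CPM in the controls and 90.3 and 80.1 CPM in SWT, so that its groups overlapped (log2 fold change 0.13 ± 0.07, edgeR adjusted p = 0.870). MRPL57 stood at 32.3 and 31.0 CPM against 34.0 and 35.8 CPM, with no overlap (0.14 ± 0.09, edgeR adjusted p = 0.886). MRPL35, MRPS15 and MRPS25 had log2 fold changes of 0.12, 0.10 and 0.10, and in each both SWT libraries lay above both controls. That was so for 17.3% of all genes, and these members too were named for their small p. MRPS36, which is not a ribosomal subunit, stood at 4.83 and 5.56 CPM in the controls and 5.36 and 6.44 CPM in SWT. Its groups overlapped (0.20 ± 0.19).

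The stalk proteins showed no common direction. MRPL12 stood at 207 and 180 CPM in the controls and 185 and 190 CPM in SWT, so both SWT values lay between the controls (log2 fold change -0.05 ± 0.07). MRPL10 had a log2 fold change of -0.04 and MRPL11 of 0.04. The sign of each of these 3 values changed when a library was left out. MRPS18A and MRPS18C had values of -0.03 and -0.07. At the tunnel exit MRPL23 was at 7.41 and 7.28 CPM in the controls and 6.55 and 6.27 CPM in SWT, a log2 fold change of -0.20 ± 0.17. MRPL46 and MRPS11, the pair of members that share a start region, had log2 fold changes of 0.02 and -0.07, and for each the groups overlapped.

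**Figure D3:**
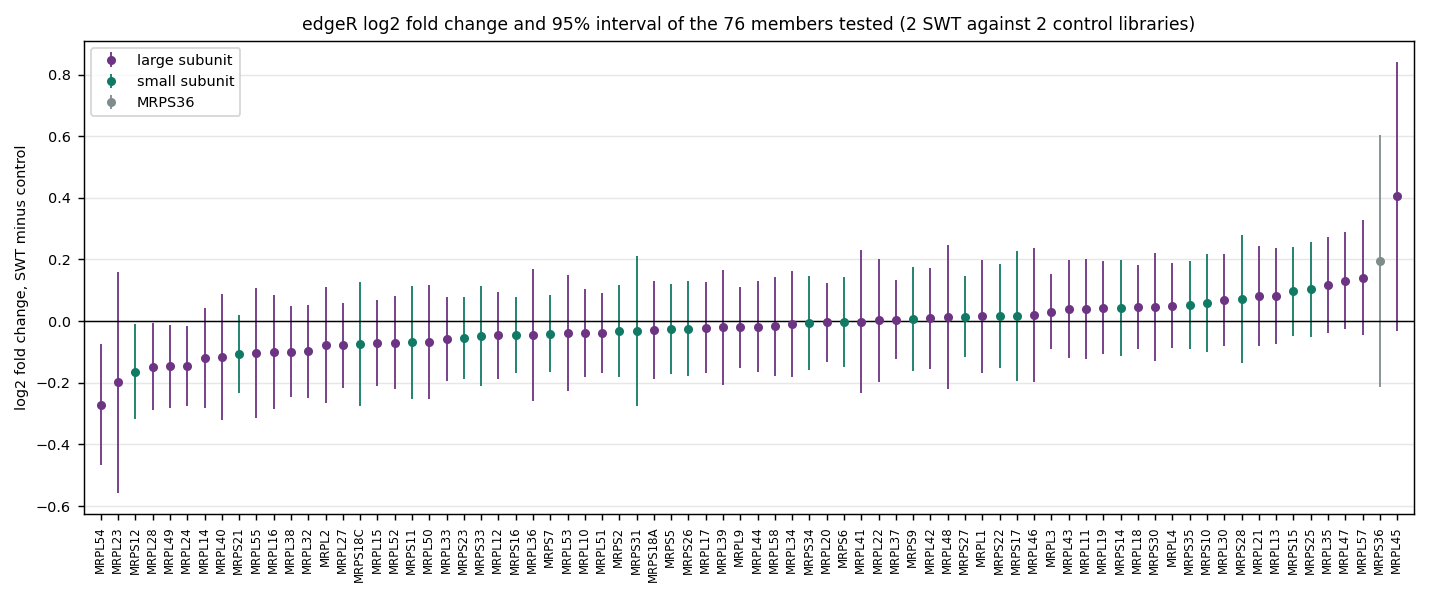
edgeR log2 fold change of SWT against control (points) with its 95% interval (bars) for the 76 members tested, ordered by value and coloured by subunit. Most points lie within 0.1 of 0, and the wide intervals belong to MRPL23, MRPS36 and MRPL45, which had few counts.

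As a group, the members lay slightly below 0. The log2 fold change was below 0 in 45 of 76 members (59.2%), against 50.3% of all genes tested, and the median was -0.019 beside -0.00078 for all genes. The median size was 0.046, less than the 0.074 of all genes. Both SWT libraries lay below both controls in 18 members (23.7%), near the 18.0% of all genes, and above both in 7 (9.2%), where 17.3% of all genes were. These counts come from only 2 libraries a group. With 1 library left out, 26 to 34 members lay wholly below and 16 to 22 wholly above. Fewer libraries must then be cleared, which raises such counts for any genes. The matching share of all genes is not given here, so nothing is read from them.

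The classes of members differed little in their medians. In the large subunit 31 of 51 members were below 0 with a median of -0.020, and in the small subunit 14 of 24 with a median of -0.015. Members with a bacterial homologue had 27 of 45 below 0 and a median of -0.021. Those classed as specific to mitochondria, MRPS18A among them, had 18 of 30 below 0 and a median of -0.017. Within the small subunit the median was -0.026 for members with a bacterial homologue and -0.0048 for those specific to mitochondria. Both SWT libraries lay below both controls in 14 of the 45 with a bacterial homologue, among them MRPL2, MRPL14, MRPL15, MRPL27, MRPL33, MRPS7 and MRPS16, and in 4 of the 30 specific to mitochondria, which were MRPL40, MRPL49, MRPL52 and MRPL54. These are 31.1% and 13.3% of the classes, on either side of the 18.0% of all genes. The difference between the classes was not tested. Genes of the cytosolic ribosome lay further below 0. Of 74 tested, 67 were lower (90.5%), with a median of -0.073 and 0 past the adjusted threshold. Their difference from the members was not tested.

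Replicates of a group differed by as much as the groups did. Between the 2 controls the size of the log2 difference had a median of 0.093 over the members, and between the 2 SWT libraries 0.063, against 0.046 for SWT minus control. The control replicates differed most in MRPL41, at 30.6 and 24.3 CPM (log2 difference -0.33), and in MRPL55, at 40.4 and 32.6 CPM. The SWT replicates differed most in MRPL53, at 39.9 and 47.8 CPM (0.26), and in MRPS36, at 5.36 and 6.44 CPM (0.26). MRPL48 followed, at 28.8 and 24.6 CPM (-0.23). The highest value of a member lay in control replicates 1 and 2 for 24 and 21 of the 76 members and in SWT replicates 1 and 2 for 21 and 10, where the shares of all genes ran from 29.7% (control 1) to 20.9% (SWT 2). The lowest value lay in them for 19, 17, 23 and 17 members, where the shares of all genes ran from 28.6% (control 1) to 21.1% (SWT 2). The median log2 difference between control replicate 1 and SWT replicate 2, the pair with the fewest heart muscle transcripts, was -0.016.

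These differences varied with the base composition of the transcripts. The GC content of the longest transcript ran from 33.5% in MRPL13 to 71.9% in MRPL41, with a median of 47.7% over the 76 members. Across members, the Spearman correlation with GC content was -0.578 for control replicate 2 minus control replicate 1, 0.338 for SWT replicate 2 minus SWT replicate 1 and -0.407 for SWT minus control. The members share libraries and depth, and these correlations are descriptions. The correlation was -0.505 for SWT replicate 2 minus control replicate 1 and -0.076 for SWT replicate 1 minus control replicate 2, so it depended on which libraries were compared.

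Split at the members' median GC content, 31 of the 38 GC-rich members were below 0, with a median of -0.038, against 14 of the 38 others, with a median of 0.015. All genes tested were split in the same direction, with 62.8% below 0 above that GC content and 37.6% at or under it. All 5 members with an unadjusted p under 0.05 (MRPL54, MRPL24, MRPL49, MRPS12 and MRPL28) were among the GC-rich. Genes lower in SWT at that edgeR p leaned the same way in the whole table. They were 286 of 6021 genes above that GC content and 75 of 6058 at or under it. When each library's trend with GC content and length was removed, 39 of 76 members were below 0, the median was -0.0040 and the correlation with GC content was 0.029. Both SWT libraries then lay below both controls in 18 members, with 18.0% of all genes, and above both in 18, with 17.7% of all genes. The log2 fold changes of MRPL54, MRPS12, MRPL24 and MRPL28 were then -0.18, -0.10, -0.09 and -0.09, and none of these 4 kept an unadjusted p under 0.05 in edgeR. That of MRPL49, whose GC content is 51.7%, was -0.13, and MRPL49 alone kept it.

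The other genes of mitochondrial translation gave no call in the edgeR fit of all 4 libraries. The rRNAs of the organelle, which the members' proteins bind, gave the lowest p-values of the pathway lists. RNR2, the large rRNA, stood at 2726 and 2723 CPM in the controls and 2464 and 2296 CPM in SWT (log2 fold change -0.20 ± 0.04, edgeR adjusted p = 0.759). RNR1, the small rRNA, stood at 534 and 559 CPM against 487 and 435 CPM (-0.24 ± 0.06, edgeR adjusted p = 0.759). Both SWT values were below both controls for each rRNA. Both rRNAs passed in edgeR with no filter (adjusted p = 0.0029 for RNR1 and 0.0017 for RNR2), without control replicate 1 (6.6e-06 and 0.00026) and without control replicate 2 (0.0036 and 0.00046). They did not pass without either SWT library, in DESeq2 or in limma-voom. Poly(A) selection captures these RNAs only in part, so their CPM is not set against that of the members.

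Proteins of the ribosome whose symbols fall outside the rule (DAP3, PTCD3, CHCHD1, AURKAIP1 and GADD45GIP1) were above 0 in 5 of 5, with a median of 0.017. DAP3, a GTP-binding protein of the small subunit, stood at 240 and 245 CPM in the controls and 245 and 244 CPM in SWT. Among 29 tested genes for assembly and rRNA modification 10 were below 0 and the median was 0.017. DDX28, a helicase of large-subunit assembly, had the smallest p of that list (-0.25 ± 0.13, edgeR adjusted p = 0.845), and METTL17 stood at -0.11. Of 18 translation factors 10 were below 0 (median -0.016), with the RNA-binding protein LRPPRC at 0.10 and the recycling factor MRRF at -0.13. Of 20 tRNA synthetase genes 12 were below 0 (median -0.0065), with EARS2 at 0.14 and FARS2 at -0.25. Of 15 genes for transcription and upkeep of mitochondrial DNA 10 were below 0 (median -0.012). HSD17B10 (-0.15) and TRMT10C (0.18), which form part of the mitochondrial RNase P, lay on opposite sides.

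Among 11 regulators of nuclear genes for mitochondrial proteins 4 were below 0 and the median was 0.056. YY1, whose word was the one most often found in the members' promoter windows, stood at 85.0 and 83.6 CPM in the controls and 90.8 and 95.2 CPM in SWT (0.14 ± 0.06, edgeR adjusted p = 0.843). CREB1 had a log2 fold change of 0.16 ± 0.07 (edgeR adjusted p = 0.843), NRF1 of -0.01 and GABPA of 0.09. None of the genes in these lists passed the adjusted threshold in the fit of all 4 libraries, and under the alternatives only RNR1 and RNR2 did.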

How the data were processed

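All results rest on the raw count table that the authors deposited, with 1 row per gene symbol. The authors also deposited log2 values for 17151 genes. Among the members, their differences between libraries had a slope of 0.286 on those of log2 CPM. These values are already logarithms and were tested as they stand. Per the submitters' processing notes, the build was hg38 and the tools were STAR 2.5.3a, HTSeq, Trimmomatic 0.36, DESeq2 and FastQC 0.11.5, with no roles given. Which annotation and which strand setting the counting used is not given in the sources used here. Per the labels' protocols the libraries came from a stranded kit for mRNA.

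The sample titles gave the groups and the replicate numbers. The count test was edgeR 4.0.16 in R 4.3.3 (TMM factors 0.9974 to 1.0039, filterByExpr with the group, quasi-likelihood F-test, Benjamini-Hochberg over 12399 genes, threshold 0.05, prior count 2 for log2 CPM). The biological coefficient of variation was 4.32%. Standard errors and 95% intervals are approximate values from the same fit. Limits from a count of 0 (3 counts) cover counting error only. Levels per length are the TMM-scaled CPM per kb of the union of annotated exons. Lengths, GC content and coordinates came from GENCODE 29 on GRCh38, with GC content known for 97.4% of tested genes. Some member exons overlap those of other genes, on the same strand in 16 members and on the opposite strand in 29, and 34 have named pseudogenes, so their counts are less certain. The fit was tested on simulated data. Plots were drawn with matplotlib 3.10.9 in Python 3.11.15.

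Alternatives were DESeq2 1.42.0 and its size factors, upper-quartile scaling, limma-voom and limma 3.58.1 on the deposited log2 values, a filter at a mean count of 50 or none, a replicate block, removal of GC and length trends, another transcript length, a shorter NRF1 word, a threshold of 0.1, and leaving out each library.

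Named members are the 6 highest and 6 lowest per length, the 6 with the smallest p in each direction, the 3 that differed most within each group, the MRPS18 paralogs, the stalk proteins, MRPS12, MRPL45, MRPS36 and those the filter removed. From each other list the 2 genes with the smallest p and both rRNAs were named. Other genes named, and the neighbouring genes, were chosen after their values were seen. The members and all lists were chosen with earlier results of these data known.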

Additional observations from a re-analysis of the deposited data

How the results depend on the processing

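The number of members called stayed at 0 under each alternative, and the smallest adjusted p of a named member was 0.141 (MRPL28, without control replicate 2). Of all genes tested, 0.355% (63) were called with no filter, 0.00807% (1) with the replicate block, 0.0565% (7) with the block and GC and length trends removed, 0.00807% (1) with those trends removed, and 0.135% to 1.60% with 1 library left out, the most without control replicate 2. Leaving out a library leaves 1 sample in a group, which is assumed to vary like the other group. In the other lists of the pathway 2 genes (RNR1 and RNR2) were called with no filter and 0 to 2 with 1 library left out. No label says that the replicate numbers pair the libraries, so the main fit used no block. The deviations of same-numbered libraries had a correlation of -0.264, which cannot show whether they were paired. A crossed replicate block, chosen after seeing the data, called 0.782% of genes (97), 2 in the other lists and 0 members.

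The members' median was -0.0040 with GC and length trends removed, -0.0061 with the replicate block as well and -0.037 to -0.0073 with 1 library left out. In the deposited log2 values it was -0.0050. Differences in those values are on a narrower scale (slope of 0.286 on log2 CPM), so its size is not set against the others. With 1 library left out 26 to 34 members lay wholly below and 16 to 22 wholly above, where fewer libraries must be cleared. The matching share of all genes is not given here. With trends removed 18 lay wholly above. The median level was 30.9 CPM per kb by longest transcript, 42.2 by principal transcript and 21.1 to 21.7 with 1 library left out.

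Of 27 named members 15 kept their sign throughout, and 8 of these moved by over 1.5 times with 1 library left out. They ran from 0.051 to 0.31 in MRPS36, 0.044 to 0.22 in MRPL47, 0.035 to 0.17 in MRPS25, 0.050 to 0.18 in MRPL35, 0.065 to 0.13 in MRPS15, -0.20 to -0.081 in MRPL28, -0.15 to -0.061 in MRPS21 and -0.13 to -0.022 in MRPS18C. The signs of the other 12 changed. With 1 library left out the log2 fold changes ran from -0.14 to 0.063 in MRPL12, -0.095 to 0.10 in MRPS34, -0.084 to 0.0088 in MRPL51, -0.0085 to 0.072 in MRPL3, -0.087 to 0.15 in MRPL46, -0.15 to 0.18 in MRPL41, -0.24 to 0.068 in MRPL55, -0.18 to 0.081 in MRPL53, -0.10 to 0.14 in MRPL48, -0.064 to 0.016 in MRPS18A, -0.11 to 0.023 in MRPL10 and -0.021 to 0.11 in MRPL11. With trends removed, and then with the replicate block as well, MRPL12 stood at 0.027 and 0.029, MRPS34 at 0.068 and 0.069, MRPL46 at -0.020 and -0.012, MRPL41 at 0.036 and 0.046 and MRPS18A at 0.040 and 0.040. MRPL41 was also at 0.011 with the block alone, 0.0048 in DESeq2, 0.0044 in limma-voom and 0.0015 in the deposited values, whose scale is narrower. The cause was not tested. With 2 libraries a group, differences of the size measured in MRPL54 or MRPL24 did not pass adjustment over all genes.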
